A study of Homo sapiens with 9 samples.

Results

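The 42 genes of ATP-binding cassette (ABC) transporters measured here were followed in MDA-MB-231 cells, a triple-negative breast cancer line of mesenchymal character, after a stable knockdown of *IGFBP6* or *ELOVL5*. The *IGFBP6* protein is secreted and captures insulin-like growth factors, and *ELOVL5* encodes an enzyme that lengthens polyunsaturated fatty acids. The members are all genes whose only symbol on a transcript cluster (the array's unit for a gene, with 1 value per array) is ABC, a subfamily letter A to G and a number. Of 43 such symbols, the pseudogene *ABCC13* was left out, and the members are 42 of the 22465 genes with a transcript cluster of 1 symbol. *ABCF1* has 7 transcript clusters, of which the brightest stands for the gene; every other member has 1.

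All cells carried a lentiviral vector (pLVX shRNA1) and had been selected with puromycin. The cells with *IGFBP6* knockdown expressed a shRNA to *IGFBP6*, the cells with *ELOVL5* knockdown a shRNA to *ELOVL5*, and the control cells (LUC) a shRNA to firefly luciferase, a gene foreign to human cells. For each knockdown the culture with the strongest decrease of its target among 2 generated cultures was used, and 3 RNA samples of each culture were measured on 9 Human Transcriptome Array 2.0 arrays in all. The replicates are thus RNA samples of 1 stable culture per group, so the p-values measure the spread between these samples, and a culture and its shRNA cannot be told apart.

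ABC proteins bind and split ATP with paired nucleotide-binding domains, and most of them use that energy to move a substrate across a membrane. Subfamily A and part of subfamily G handle sterols and phospholipids. Subfamilies B, C and G hold the export pumps for drugs and for conjugates with glutathione, glucuronate or sulfate, which are known in breast cancer cells for resistance to chemotherapy. Members of subfamily D serve peroxisomes and lysosomes, and those of subfamilies E and F are soluble ATPases that act on ribosomes.

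Values are log2 intensities after the normalization of the authors, so a difference of 1 is a doubling. Calls required an adjusted p under 0.05 (limma over all 9 arrays, Benjamini-Hochberg adjustment over 67528 transcript clusters) and a change of at least 1.5 times, the thresholds of the study. Differences are given as the first group minus the second. The 2 comparisons with LUC share the 3 LUC arrays, so their values for a gene are given side by side and are not independent.

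The promoters of 4 members are shown as examples of the genes with the largest falls and of 1 gene that was higher after the knockdown of *IGFBP6*: *ABCA1*, *ABCC4* and *ABCD3* were lower and *ABCC2* was higher. Each is the stretch of 250 bases before the start of the gene in RefSeq (assembly GRCh38.p14), 5′ to 3′ on the strand of the gene, with capitals at matches to any of 5 motifs on either strand. They lie at chr9:104928156-104928405 (minus strand) for *ABCA1*, chr13:95301452-95301701 (minus strand) for *ABCC4*, chr1:94418139-94418388 (plus strand) for *ABCD3* and chr10:99782390-99782639 (plus strand) for *ABCC2*. *ABCC3*, which fell slightly more than *ABCC4*, had no window among the promoter sequences used and is not shown.
ABCA1: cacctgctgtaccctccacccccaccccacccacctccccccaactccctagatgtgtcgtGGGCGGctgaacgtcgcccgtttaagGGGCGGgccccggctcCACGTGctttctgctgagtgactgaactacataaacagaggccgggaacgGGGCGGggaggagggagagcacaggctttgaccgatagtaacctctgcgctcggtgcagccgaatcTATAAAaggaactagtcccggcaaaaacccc
ABCC4: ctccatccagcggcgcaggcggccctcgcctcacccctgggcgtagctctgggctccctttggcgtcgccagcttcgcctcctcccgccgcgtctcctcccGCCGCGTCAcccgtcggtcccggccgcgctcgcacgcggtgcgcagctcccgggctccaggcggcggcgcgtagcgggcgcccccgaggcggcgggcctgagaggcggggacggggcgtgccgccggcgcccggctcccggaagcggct
ABCD3: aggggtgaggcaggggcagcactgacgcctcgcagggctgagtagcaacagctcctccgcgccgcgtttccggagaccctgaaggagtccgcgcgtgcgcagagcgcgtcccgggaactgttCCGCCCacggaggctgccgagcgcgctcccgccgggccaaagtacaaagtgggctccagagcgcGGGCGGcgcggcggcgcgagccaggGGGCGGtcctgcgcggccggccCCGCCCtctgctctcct
ABCC2: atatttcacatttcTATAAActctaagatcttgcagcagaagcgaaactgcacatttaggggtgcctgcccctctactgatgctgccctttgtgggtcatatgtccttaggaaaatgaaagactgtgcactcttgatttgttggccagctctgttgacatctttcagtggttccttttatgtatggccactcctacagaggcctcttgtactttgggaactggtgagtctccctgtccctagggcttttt

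These windows differ in base composition and in the motifs they hold. The GC content was 61.6% for *ABCA1*, 80.4% for *ABCC4*, 74.4% for *ABCD3* and 45.6% for *ABCC2*, against a median of 58.0% over 35116 RefSeq promoter windows. The *ABCA1* window held GGGCGG (the GC box) at 3 places, CACGTG (an E-box) once and TATAAA at -31 to -26, counted back from the start of the gene. *ABCD3* had GGGCGG at 4 places, *ABCC4* had TGACNNNGC (the core of the antioxidant response element) once, and *ABCC2* had TATAAA only, at -236 to -231. In the 51 windows of the 34 members with a RefSeq window, the shares with a match were 49.0% for GGGCGG, 11.8% for TATAAA, 21.6% for CCAAT, 17.6% for CACGTG and 17.6% for TGACNNNGC. Over all windows the shares were 42.6% for GGGCGG, 10.7% for TATAAA, 32.0% for CCAAT, 6.34% for CACGTG and 10.9% for TGACNNNGC. These matches are descriptions of letters and were not tested as binding sites.

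The shRNA targets and the cell markers were checked first. *ELOVL5* gave 9.66, 9.67 and 9.57 after its knockdown, against 11.25, 11.26 and 11.36 in LUC cells (3.15 times lower, adjusted p = 8.71e-05 from limma). *IGFBP6* gave 5.65, 5.30 and 5.56 after its knockdown, against 6.13, 6.21 and 6.03 in LUC cells (1.54 times lower, adjusted p = 0.00183). Both targets were therefore lower in the cells that their labels name, *IGFBP6* at a dim level. *ELOVL5* gave 11.44, 11.70 and 11.90 after the knockdown of *IGFBP6*, 1.31 times higher than in LUC cells (adjusted p = 0.0412 from limma). That was under 1.5 times and not a call. *IGFBP6* differed from LUC by -0.11 after the knockdown of *ELOVL5* (adjusted p = 0.791 from limma). The 7 markers of MDA-MB-231 cells had medians of 13.97 to 14.07 after the knockdown of *IGFBP6*, 14.34 to 14.61 after that of *ELOVL5* and 14.57 to 14.85 in LUC cells, and 4 of them (*CD44*, *AXL*, *CAV1*, *LGALS1*) were lower and *EGFR* was higher after the knockdown of *IGFBP6* than in LUC cells. All 4 measured leukocyte markers, 3 of 4 endothelial markers and all 5 markers of HEK-293 packaging cells stayed below 6 on every array. Of these, *PTPRC* was called lower after the knockdown of *IGFBP6* than in LUC cells (-0.77), and the remaining endothelial marker *KDR* was called higher (0.63). Of 5 measured luminal markers, *ESR1* and *PGR* were dim and not called. *FOXA1* gave 7.10, 7.64 and 7.45 after the knockdown of *IGFBP6*, 5.77, 5.71 and 5.83 after that of *ELOVL5*, and 5.01, 5.09 and 4.96 in LUC cells, and was called higher after both knockdowns (2.38 and 0.75 against LUC), while *GATA3* (-0.76) and *TFF1* (-0.94) were called lower after that of *IGFBP6*. The part of these markers in the results on ABC genes was not tested.

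After the knockdown of *IGFBP6*, 9 of 42 ABC genes (21.4%) were called against LUC, beside 16.3% of all genes, with 3 higher and 6 lower. The lower ones were *ABCA1*, *ABCA5*, *ABCB10*, *ABCC3*, *ABCC4* and *ABCD3*, and the higher ones were *ABCC2*, *ABCC9* and *ABCD4*. Of the ABC genes 7.14% were higher and 14.3% lower, against 7.82% and 8.49% of all genes. Arrays of both groups did not overlap for 17 ABC genes (40.5%, beside 37.7% of all genes), and the median difference was -0.07 over the members and -0.01 over all genes.

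After the knockdown of *ELOVL5*, 3 ABC genes (7.14%) were called against LUC, beside 1.36% of all genes, and all 3 of them, *ABCA5*, *ABCD3* and *ABCG2*, were lower (beside 0.69% of all genes called lower). In limma 0 members were called higher, beside 0.672% of all genes; 1 (*ABCC9*) was higher at an unadjusted p under 0.05, and a plain linear model, with no moderation of the variances, called 0 higher and 0 lower. With each array centred on its median, 0 were called lower as well. The median difference was -0.045 over the members and -0.02 over all genes. For 18 members (42.9%, beside 23.7% of all genes) the arrays did not overlap, 14 of them with lower values after the knockdown and 4 with higher values, beside 13.8% and 9.91% of all genes. The lower ones included *ABCA4*, *ABCA6*, *ABCA10*, *ABCA12*, *ABCA13*, *ABCB1*, *ABCB4*, *ABCB5*, *ABCC12* and *ABCD2*. These were below 5.02, the median of all values, on every array, with differences of -0.22 to -0.06 and no call. The calls of *ABCA5*, *ABCD3* and *ABCG2* depended on single arrays. None of the 3 was called without *ELOVL5* knockdown replicate 1, 2 or 3 or without LUC replicate 2. Only *ABCA5* was called without LUC replicate 1, and only *ABCG2* was called without LUC replicate 3. *ABCG2* was also not called without *IGFBP6* knockdown replicate 2 or 3, which enter through the shared estimate of the spread.

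Compared directly, the cells with *IGFBP6* knockdown differed from those with *ELOVL5* knockdown in 6 ABC genes (14.3%, beside 13.1% of all genes). *ABCC2* and *ABCG2* were higher (4.76%, beside 6.5% of all genes) and *ABCA1*, *ABCC3*, *ABCC4* and *ABCD3* were lower (9.52%, beside 6.64%). Arrays did not overlap for 21 members (50.0%, beside 39.8% of all genes), and the median difference was -0.02 over the members and 0.02 over all genes. In all, 10 members (23.8%, beside 18.2% of all genes) were called in at least 1 comparison and 32 in none.

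**Figure D1:**
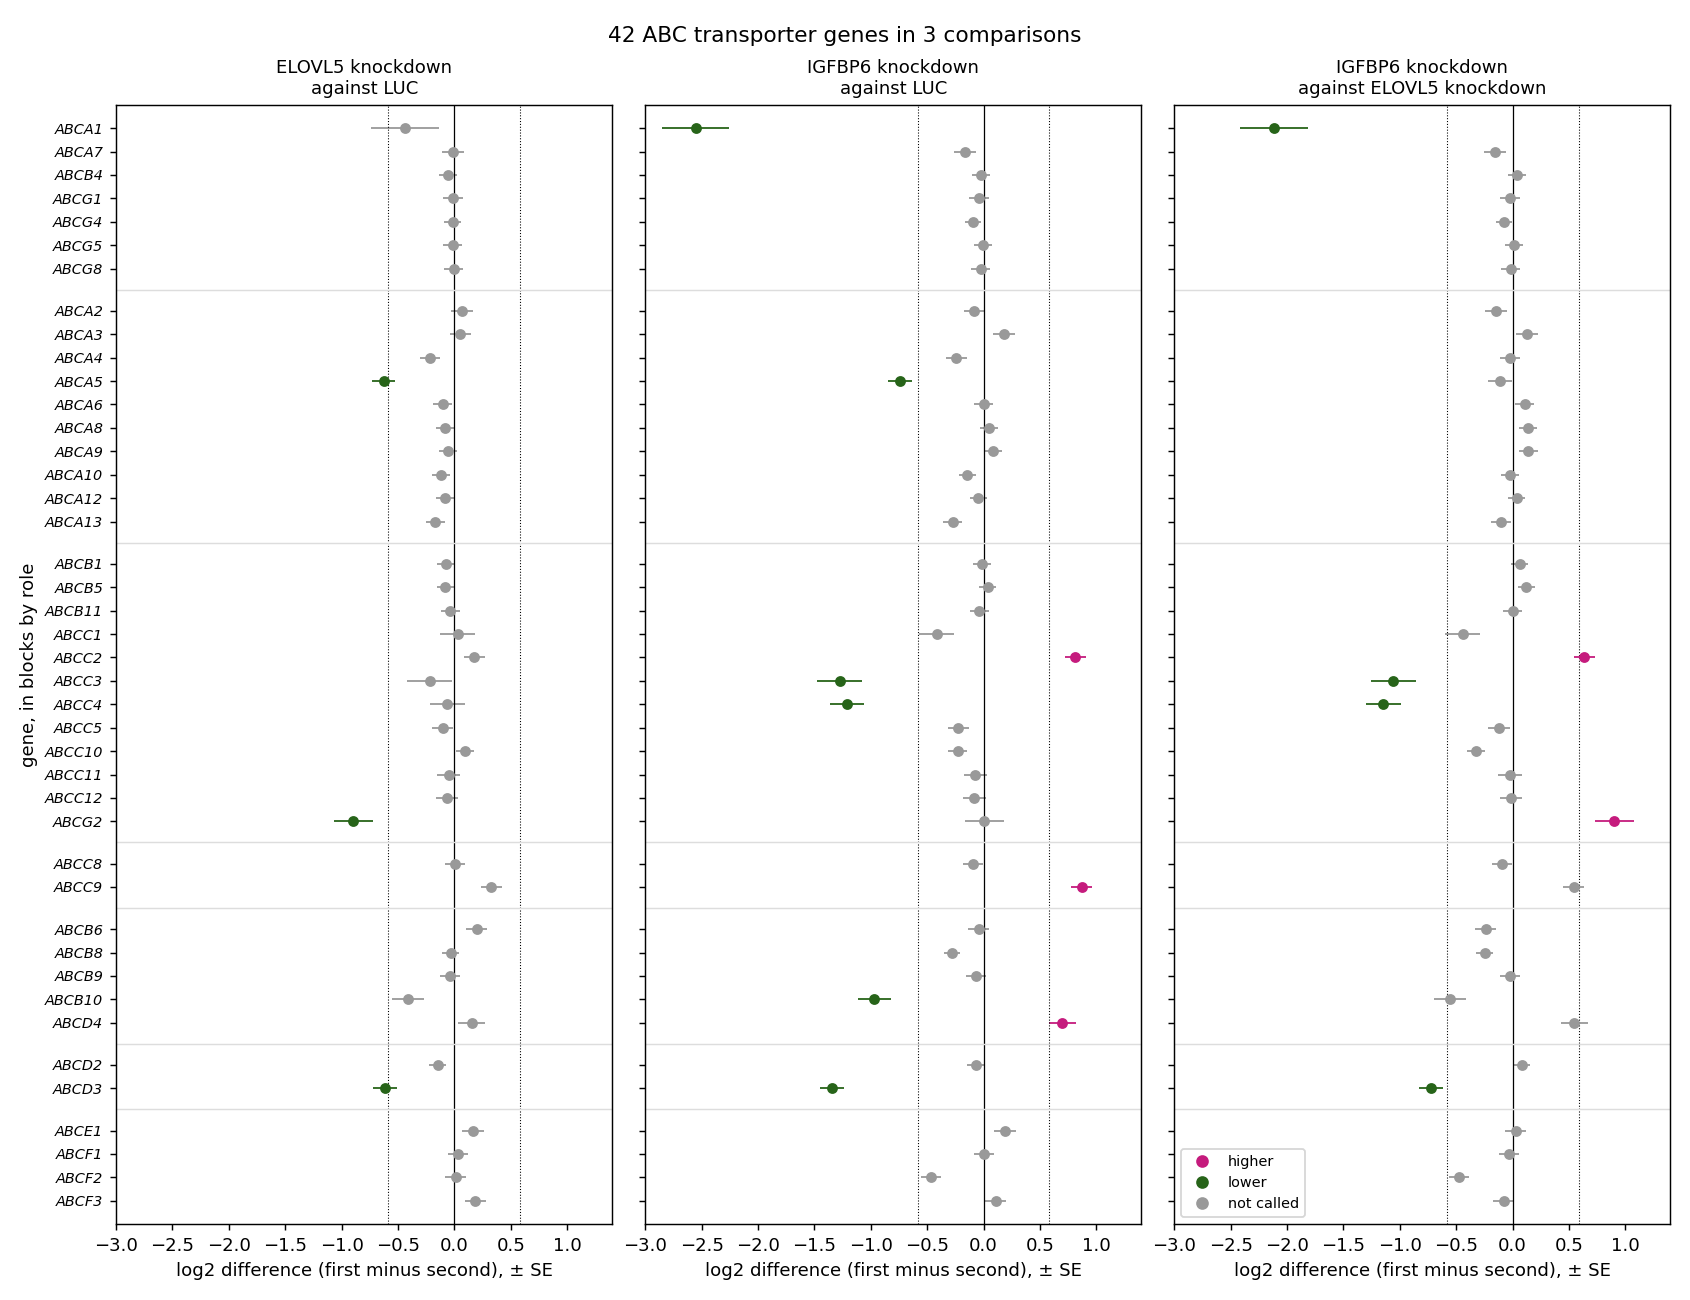
Difference in log2 intensity (± standard error) of 42 ABC transporter genes in 3 comparisons, each the first group minus the second, in blocks by role; dotted lines mark 1.5 times. Filled green points to the left are the members called lower, with *ABCA1* at -2.55 as the largest fall after the knockdown of *IGFBP6*, and the magenta points are those called higher.

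Sterol and phospholipid exporters were represented in these differences by *ABCA1* alone. *ABCA1*, on chromosome 9, hands cholesterol and phospholipids to lipid-poor apolipoproteins. It gave 5.47, 5.14 and 5.30 after the knockdown of *IGFBP6*, 7.27, 7.59 and 7.40 after that of *ELOVL5*, and 7.86, 8.62 and 7.09 in LUC cells. All 3 arrays with *IGFBP6* knockdown lay far below the others, while the arrays with *ELOVL5* knockdown lay within the wide range of the LUC arrays. The fall after the knockdown of *IGFBP6* was 5.87 times against LUC (-2.55, SE 0.30, adjusted p = 0.000183 from limma) and 4.34 times against the knockdown of *ELOVL5* (-2.12, adjusted p = 0.000885). After the knockdown of *ELOVL5* the difference from LUC was -0.44 (SE 0.30, adjusted p = 0.683), and with an SD of 0.765 the LUC arrays of *ABCA1* were the most scattered of any member and group.

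The other 6 genes of this role lay between 3.98 and 5.80 on all arrays. None was called in any comparison, beside 18.2% of all genes called in at least 1. They are *ABCA7*, *ABCB4* (which moves phosphatidylcholine into bile), *ABCG1* (which passes cholesterol to lipoproteins), *ABCG4* and the pair *ABCG5* and *ABCG8*, which export plant sterols from gut and liver. *ABCG1*, the usual companion of *ABCA1* in cholesterol efflux, gave 4.85, 4.64 and 4.73 after the knockdown of *IGFBP6*, 4.79, 4.75 and 4.76 after that of *ELOVL5*, and 4.87, 4.78 and 4.68 in LUC cells. These values overlap and lie near the median of all values on the arrays, 5.02, close to background.

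Of 13 listed partners of sterol efflux, 10 were measured. After the knockdown of *IGFBP6*, 4 were higher and 1 lower than in LUC cells, beside 7.82% and 8.49% of all genes. For *ELOVL5* knockdown 0 were called in limma, beside 1.36% of all genes (1 higher and 1 lower at unadjusted p under 0.05). *PLTP*, which transfers phospholipids between lipoproteins, was 2.07 higher (7.09, 8.22 and 7.46 with *IGFBP6* knockdown, against 5.52, 5.63 and 5.40 in LUC cells). *SCARB1*, a receptor for high-density lipoprotein, was 1.16 higher and *STARD4*, a carrier of cholesterol in the cytosol, 1.15 higher, all on the log2 scale. *CAV1*, the coat protein of caveolae, was lower (-0.88). Thus *ABCA1* and *CAV1* fell where *PLTP*, *SCARB1* and *STARD4* rose. Of 16 measured nuclear receptors and other factors known to control ABC genes, *AHR* alone was called. It gave 13.14, 12.93 and 12.76 after the knockdown of *IGFBP6* against 14.63, 14.49 and 14.22 in LUC cells (-1.50, adjusted p = 1.86e-05 from limma). In that comparison 16.3% of all genes were called. *NR1H3*, the liver X receptor alpha that switches on *ABCA1*, differed by 0.17 (adjusted p = 0.365).

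Among the remaining carriers of subfamily A, 1 of 10 genes was called in at least 1 comparison, beside 18.2% of all genes. *ABCA5*, a transporter of lysosomes and late endosomes from the subfamily A cluster on chromosome 17, gave 6.26, 6.48 and 6.53 after the knockdown of *IGFBP6*, 6.51, 6.49 and 6.61 after that of *ELOVL5*, and 7.02, 7.19 and 7.28 in LUC cells. Both knockdown groups lay below every LUC array and overlapped with each other. *ABCA5* was lower than in LUC cells by 1.67 times after the knockdown of *IGFBP6* (-0.74, SE 0.10, adjusted p = 0.000603 from limma) and by 1.54 times after that of *ELOVL5* (-0.63, SE 0.10, adjusted p = 0.0203), and the knockdowns differed by -0.11 (adjusted p = 0.570). The call after the knockdown of *ELOVL5* held in 4 of the 9 fits that leave out 1 array.

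The 9 uncalled genes of this set ranged over 3.95 to 6.81. *ABCA2*, an endolysosomal lipid carrier, and *ABCA3*, which loads surfactant lipids in the lung, were the brighter ones, with *ABCA2* at 6.48, 6.64 and 6.61 with *IGFBP6* knockdown against 6.59, 6.81 and 6.57 in LUC cells. The neighbours of *ABCA5* in the gene cluster, *ABCA6*, *ABCA8*, *ABCA9* and *ABCA10*, were all below 5 on every array, as were *ABCA4* of the retina, *ABCA12* of the skin and *ABCA13*. Their differences from LUC ran from -0.27 to 0.18 after the knockdown of *IGFBP6* and from -0.22 to 0.07 after that of *ELOVL5* (*ABCA2* and *ABCA3* included).

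Of 12 exporters of drugs, conjugates and bile acids, 4 were called in at least 1 comparison, beside 18.2% of all genes, in different directions. *ABCC4* exports cyclic nucleotides, prostanoids and nucleotide drugs. It gave 8.25, 8.67 and 8.95 after the knockdown of *IGFBP6*, 9.85, 9.74 and 9.72 after that of *ELOVL5*, and 9.73, 9.83 and 9.94 in LUC cells. The 3 arrays with *IGFBP6* knockdown were apart from the 6 others, which overlapped. *ABCC4* fell by 2.31 times against LUC (-1.21, SE 0.15, adjusted p = 0.000320 from limma) and was 2.21 times lower than after the knockdown of *ELOVL5* (-1.15, adjusted p = 0.000640).

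*ABCC3*, on chromosome 17, exports glucuronides and bile salts on the basolateral side of epithelia. It gave 6.44, 6.37 and 6.52 after the knockdown of *IGFBP6*, 7.55, 7.56 and 7.39 after that of *ELOVL5*, and 7.58, 8.27 and 7.31 in LUC cells. LUC replicate 2 was the highest array for *ABCC3*, as it was for *ABCA1*. The fall was 2.42 times against LUC (-1.28, SE 0.20, adjusted p = 0.00118 from limma), and 2.08 times against the knockdown of *ELOVL5* (-1.06, adjusted p = 0.00482).

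*ABCC2*, on chromosome 10, is the exporter of conjugates on the bile side of hepatocytes, with substrates much like those of *ABCC3*. It moved the other way, with 6.20, 6.31 and 6.34 after the knockdown of *IGFBP6*, 5.73, 5.60 and 5.61 after that of *ELOVL5*, and 5.62, 5.37 and 5.42 in LUC cells. *ABCC2* was 1.76 times higher than in LUC cells (0.81, SE 0.09, adjusted p = 0.000174 from limma) and 1.55 times higher than after the knockdown of *ELOVL5* (0.64, adjusted p = 0.00120). All of these values lie close to the dim end of the arrays, so the fold is that of the processed scale.

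*ABCG2*, on chromosome 4, is the breast cancer resistance protein, which exports many drugs, sulfated steroids and urate. It gave 8.72, 9.26 and 9.19 after the knockdown of *IGFBP6*, 8.03, 8.24 and 8.19 after that of *ELOVL5*, and 9.21, 9.24 and 8.70 in LUC cells. Here the cells with *ELOVL5* knockdown stood apart and the other 2 groups overlapped. *ABCG2* was 1.86 times lower after the knockdown of *ELOVL5* than in LUC cells (-0.90, SE 0.17, adjusted p = 0.0421 from limma), and 1.87 times higher with *IGFBP6* knockdown than with *ELOVL5* knockdown (0.90, adjusted p = 0.00555). Between *IGFBP6* knockdown and LUC the difference was 0.01 (SE 0.17, adjusted p = 0.991). The call against LUC held in 2 of the 9 fits that leave out 1 array, with adjusted p between 0.0179 and 0.153, while that against the other knockdown held in all 9. The call against LUC was also lost with the replicate number as a block (adjusted p = 0.0531), with no moderation (adjusted p = 0.206) and with median centring (adjusted p = 0.0944).

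**Figure D2:**
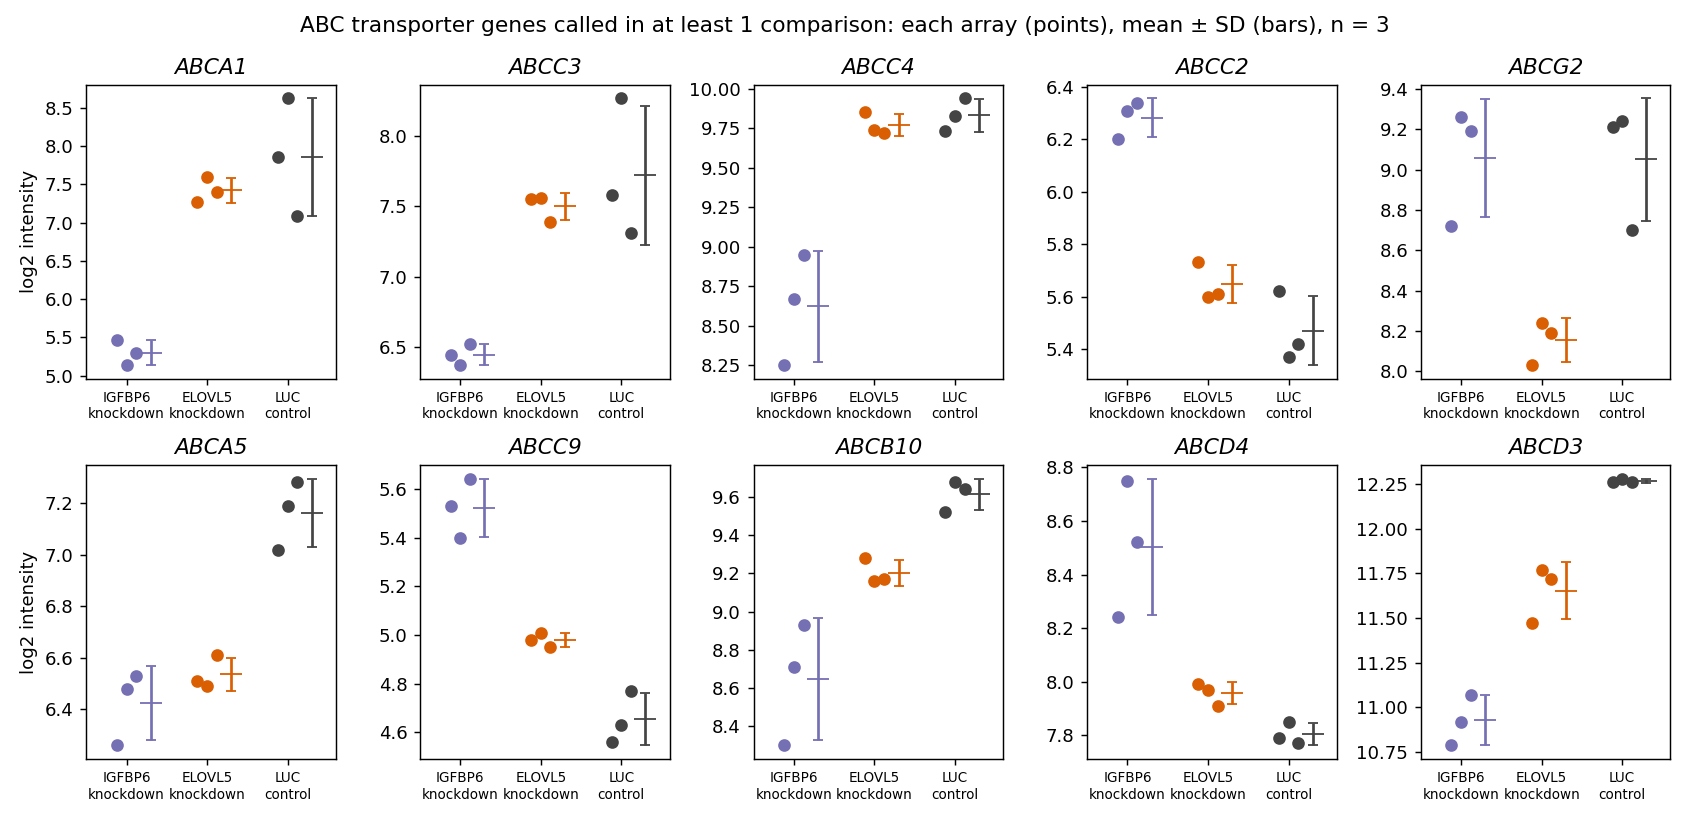
Log2 intensity of the 10 ABC transporter genes called in at least 1 comparison, with 1 point per array and the mean ± SD beside the points (n = 3 per group); each panel has its own axis. *ABCA1*, *ABCC3* and *ABCC4* are low in the cells with *IGFBP6* knockdown alone, and *ABCG2* in the cells with *ELOVL5* knockdown alone.

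Uncalled in this role were 8 genes. *ABCB1*, which encodes P-glycoprotein, was at 4.16, 4.07 and 4.16 after the knockdown of *IGFBP6*, 4.04, 4.11 and 4.05 after that of *ELOVL5*, and 4.12, 4.15 and 4.16 in LUC cells, below the median of all values throughout. *ABCB5*, *ABCB11* (the bile salt pump), *ABCC11* and *ABCC12* were below 5 as well. The multidrug resistance protein *ABCC1* gave 8.20, 8.81 and 8.82 after the knockdown of *IGFBP6*, against 8.95, 9.02 and 9.10 in LUC cells. Its arrays did not overlap, yet the difference of -0.41 (SE 0.16) had an adjusted p of 0.109 from limma. *ABCC5*, an exporter of cyclic GMP, differed by -0.22 (adjusted p = 0.155) and *ABCC10* by -0.23 (adjusted p = 0.0931), and *ABCC10* was 0.32 lower with *IGFBP6* knockdown than with *ELOVL5* knockdown (adjusted p = 0.0247), under 1.5 times.

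Genes that supply or share the substrates of these pumps were counted from lists. Of 24 measured uptake carriers for drugs and organic ions, 2 were higher and 5 lower after *IGFBP6* knockdown than in LUC cells. The shares over all genes were 7.82% and 8.49%. For *ELOVL5* knockdown 0 were called in limma, beside 1.36% of all genes (2 higher and 4 lower at unadjusted p under 0.05). The following differences are those of *IGFBP6* knockdown against LUC. *SLCO4C1*, an organic anion carrier, was higher by 1.89 on the log2 scale. *SLC22A5*, the carnitine carrier, was lower (-1.61), with 6.02, 5.91 and 5.99 against 7.61, 7.51 and 7.62 in LUC cells, as were the organic anion carriers *SLCO3A1* (-1.44) and *SLCO4A1* (-0.86). The list thus moved in both directions, and its median was -0.04.

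Glutathione enzymes changed in both directions too. For *ELOVL5* knockdown 0 of 19 measured genes were called in limma, beside 1.36% of all genes (1 higher and 4 lower at unadjusted p under 0.05). Of the 19, 4 were higher and 5 lower after *IGFBP6* knockdown than in LUC cells, beside 7.82% and 8.49% of all genes. Transferase genes *GSTA4* (1.61) and *MGST1* (0.75) were higher and *GSTM4* (-1.33) and *GSTM1* (-1.12) lower. *GSTM* genes are related genes on chromosome 1, and how far the probes of 1 of them read the others was not tested.

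Of 17 genes of glucuronidation and sulfation, *SULT1B1*, a sulfotransferase, was higher in both knockdowns against LUC. It gave 4.67, 5.32 and 4.90 after the knockdown of *IGFBP6*, 6.74, 7.06 and 6.82 after that of *ELOVL5*, and 4.28, 4.40 and 4.37 in LUC cells, so the cells with *ELOVL5* knockdown were highest (2.52 against LUC, adjusted p = 3.30e-05 from limma). *SULT1C2*, another sulfotransferase, was higher with *IGFBP6* knockdown alone (0.98 against LUC). Of 12 measured cytochromes P450, *CYP2J2*, which epoxidises arachidonic acid, was higher by 2.03 after the knockdown of *IGFBP6* and by 0.94 after that of *ELOVL5*. *CYP1A1*, the classic target of the AHR protein, was lower after the knockdown of *IGFBP6* (-0.86). In the same comparison with LUC, *CYP1B1* (-0.11) and *CYP1A2* (-0.02) of this list were not called. These 2 lists hold the only called genes after the knockdown of *ELOVL5* among the 11 lists of partners and companions. After that knockdown 1 gene of each list was called against LUC, beside 1.36% of all genes. After the knockdown of *IGFBP6*, 2 of 17 and 2 of 12 genes were called against LUC, beside 16.3% of all genes.

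Of the sulfonylurea receptors, regulatory subunits of ATP-sensitive potassium channels, *ABCC9* was called and *ABCC8* was not. *ABCC9*, on chromosome 12, gave 5.53, 5.40 and 5.64 after the knockdown of *IGFBP6*, 4.98, 5.01 and 4.95 after that of *ELOVL5*, and 4.56, 4.63 and 4.77 in LUC cells. No groups overlapped, and the order was *IGFBP6* knockdown, *ELOVL5* knockdown, LUC. It was 1.83 times higher than in LUC cells after the knockdown of *IGFBP6* (0.87, SE 0.09, adjusted p = 0.000103 from limma), and 0.54 higher than after the knockdown of *ELOVL5* (adjusted p = 0.00290, 1.46 times). *ABCC9* was the only called member too dim for the brightness filter of a log2 of 6 on 3 arrays. *ABCC2* passed that filter only through the 3 arrays with *IGFBP6* knockdown, the group in which it was called higher. Its channel pore *KCNJ8*, the next gene on chromosome 12, was at 4.56, 4.50 and 4.60 with *IGFBP6* knockdown against 4.50, 4.67 and 4.49 in LUC cells, and *KCNJ11*, the pore that pairs with *ABCC8*, was not called either.

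Transporters of mitochondria and lysosomes included 2 genes of 5 called in at least 1 comparison, beside 18.2% of all genes. *ABCB10* sits in the inner mitochondrial membrane and is needed for haem synthesis. It gave 8.30, 8.71 and 8.93 after the knockdown of *IGFBP6*, 9.28, 9.16 and 9.17 after that of *ELOVL5*, and 9.52, 9.68 and 9.64 in LUC cells. The groups did not overlap, with the *IGFBP6* knockdown lowest, the *ELOVL5* knockdown between and LUC highest. Against LUC, *ABCB10* was 1.95 times lower after the knockdown of *IGFBP6* (-0.97, SE 0.14, adjusted p = 0.000820 from limma), whereas after that of *ELOVL5* the difference was -0.41 (adjusted p = 0.282). Of 13 measured iron-sulfur and haem genes, 3 were called in *IGFBP6* knockdown against LUC, beside 16.3% of all genes. *GLRX5*, a glutaredoxin of iron-sulfur cluster assembly, was higher (0.97) after the knockdown of *IGFBP6* than in LUC cells. *SLC25A37*, the mitochondrial iron importer mitoferrin, was lower (-0.84), as was *CPOX*, an enzyme of haem synthesis (-0.63), and the cluster scaffold *ISCU* was called lower only against the knockdown of *ELOVL5* (-0.65).

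*ABCD4*, on chromosome 14, moves cobalamin (vitamin B12) out of lysosomes together with the product of *LMBRD1*. It gave 8.24, 8.75 and 8.52 after the knockdown of *IGFBP6*, 7.99, 7.97 and 7.91 after that of *ELOVL5*, and 7.79, 7.85 and 7.77 in LUC cells. Every array with *IGFBP6* knockdown was above every other array, replicate 1 by the least, and the rise against LUC was 1.62 times (0.70, SE 0.12, adjusted p = 0.00213 from limma). Without *IGFBP6* knockdown replicate 2 the rise was 0.58, under 1.5 times. *LMBRD1* differed in the opposite direction, with 8.89, 9.13 and 9.25 after the knockdown of *IGFBP6* against 9.75, 10.12 and 9.53 in LUC cells (-0.71, adjusted p = 0.0104). That call was lost without LUC replicate 2 (-0.55) and with no moderation (adjusted p = 0.0559). The uncalled genes *ABCB6*, *ABCB8* and *ABCB9* lay between 5.58 and 6.52, and *ABCB8*, another carrier of mitochondria, was 0.28 lower with *IGFBP6* knockdown than in LUC cells (adjusted p = 0.0259), under 1.5 times.

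Peroxisomal transporters import fatty acids as acyl-CoA esters for oxidation. *ABCD3*, on chromosome 1 and known as PMP70, was lower after both knockdowns. It gave 10.79, 10.92 and 11.07 after the knockdown of *IGFBP6*, 11.47, 11.77 and 11.72 after that of *ELOVL5*, and 12.26, 12.28 and 12.26 in LUC cells. The groups did not overlap, and the SD of the 3 LUC arrays was 0.012. *ABCD3* fell by 2.53 times after the knockdown of *IGFBP6* (-1.34, SE 0.11, adjusted p = 1.34e-05 from limma), by 1.53 times after that of *ELOVL5* (-0.61, SE 0.11, adjusted p = 0.0249), and was 1.65 times lower in the first than in the second (-0.73, adjusted p = 0.00107). The call after the knockdown of *ELOVL5* held in 3 of the 9 fits that leave out 1 array (adjusted p between 0.0189 and 0.0907), and was lost with no moderation (adjusted p = 0.104), with median centring (adjusted p = 0.0709) and with array weights (-0.58, under 1.5 times).

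*ABCD2*, the other peroxisomal member, was at 4.37, 4.25 and 4.25 with *IGFBP6* knockdown against 4.35, 4.36 and 4.37 in LUC cells and was not called. Of 12 measured partners in peroxisomes and cobalamin handling, 2 were called in *IGFBP6* knockdown against LUC, beside 16.3% of all genes. *ACSL1*, which activates long-chain fatty acids, was 1 of them (-2.34, with 6.32, 6.76 and 6.94 against 8.98, 8.98 and 9.09), and *LMBRD1* the other. *SLC27A2*, the acyl-CoA synthetase of very long chains, was higher with *IGFBP6* knockdown than with *ELOVL5* knockdown (0.90) but was not called against LUC in either.

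The ATPases of translation were bright and none of the 4 was called in any comparison, beside 18.2% of all genes called in at least 1. *ABCE1*, which splits ribosomes after termination, gave 13.54, 13.71 and 13.65 after the knockdown of *IGFBP6*, 13.57, 13.61 and 13.64 after that of *ELOVL5*, and 13.45, 13.29 and 13.58 in LUC cells. *ABCF1*, which works in initiation, lay between 12.08 and 12.31 over all arrays, and *ABCF3* averaged 8.84 ± 0.08 after the knockdown of *IGFBP6*, 8.92 ± 0.12 after that of *ELOVL5* and 8.74 ± 0.09 in LUC cells (SD, n = 3 each). *ABCF2* alone had arrays apart, with 11.20, 11.39 and 11.18 after the knockdown of *IGFBP6* against 11.78, 11.64 and 11.75 in LUC cells. That difference of -0.47 (adjusted p = 0.00431 from limma) passed the test but was under 1.5 times. In the list of 13 measured partners, 3 were higher after the knockdown of *IGFBP6* than in LUC cells, beside 7.82% of all genes. In limma 0 were called lower, beside 8.49% of all genes, and 2 were lower at an unadjusted p under 0.05. The higher ones were *EIF2S1*, a subunit of an initiation factor (0.83), *EIF2AK4*, a kinase of that subunit (0.82), and the release factor *ETF1* (0.80).

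Family members under other names were looked up as well. *TAP1*, a subunit of the antigen peptide transporter, was lower, with 6.09, 6.53 and 6.40 after the knockdown of *IGFBP6* against 7.17, 7.71 and 7.49 in LUC cells (-1.12, adjusted p = 0.000552 from limma). Its partner subunit *TAP2* gave 9.10, 9.47 and 9.47 against 9.21, 9.42 and 9.37 (0.01, adjusted p = 0.967), so the values of the pair differed in their change. *CFTR*, the chloride channel of the family, was at or below 4.06 on every array and was not called. Pseudogene and antisense transcript clusters with ABC symbols and the other clusters of *ABCF1* were called in no comparison.

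**Figure D3:**
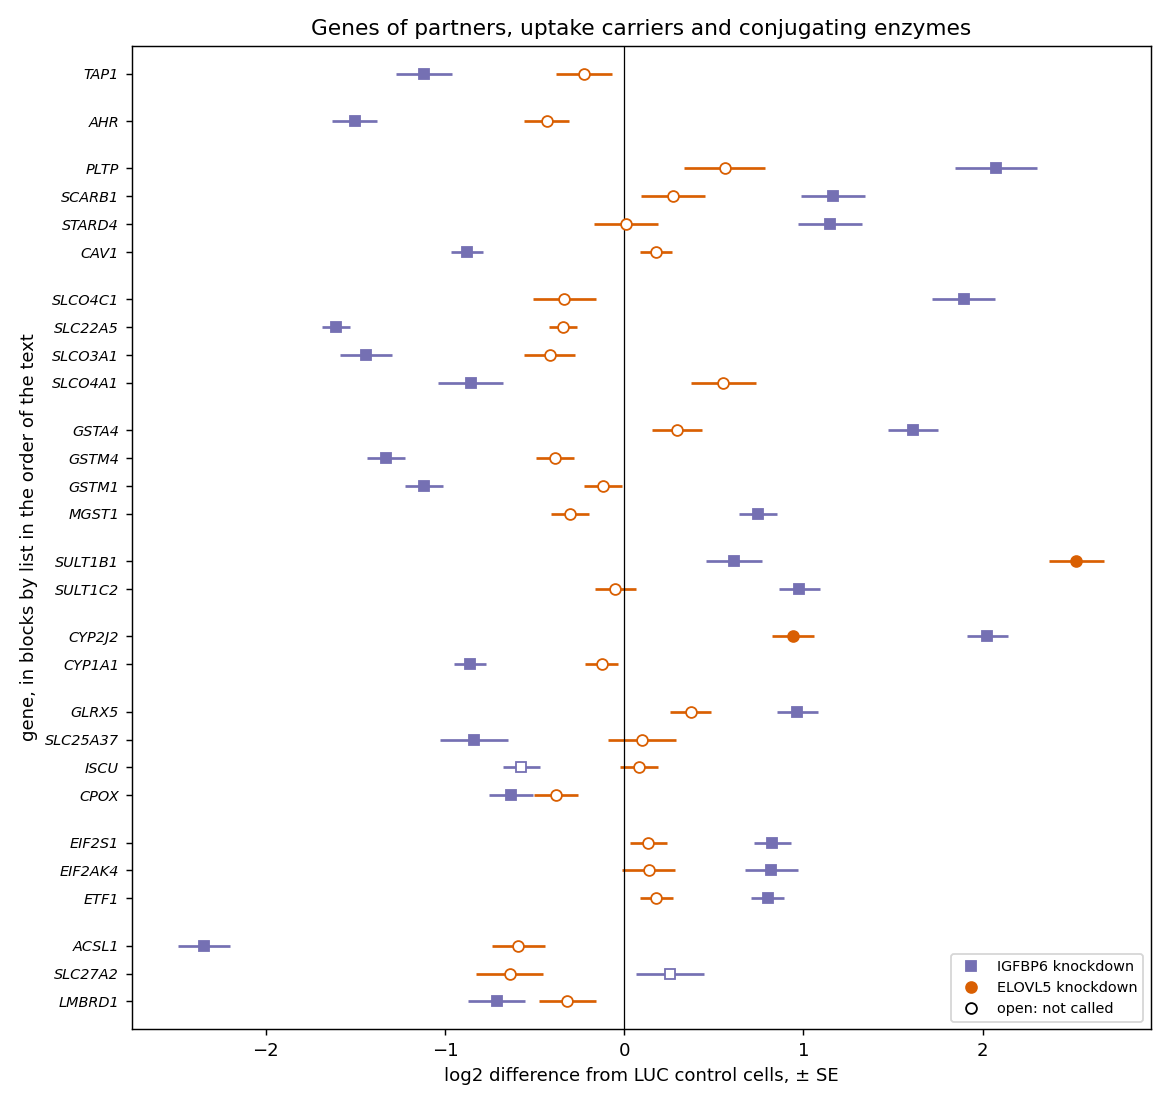
Difference in log2 intensity from LUC control cells (± standard error) for up to 4 called genes from each list of partners and companions of the ABC transporters; filled symbols were called and open ones were not. *ACSL1* (-2.34) and *PLTP* (2.07) mark the ends after the knockdown of *IGFBP6*, and *SULT1B1* (2.52) is the farthest point after the knockdown of *ELOVL5*.

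The called members were then set against the genes around them. For each gene, the median difference was taken of the 40 nearest protein-coding genes in chromosome order with a mean log2 of at least 6. After the knockdown of *IGFBP6*, the neighbours of *ABCD3* differed from LUC by -1.02, those of *ABCC9* by 0.76, of *ABCC2* by 0.71 and of *ABCD4* by 0.68, beside -1.34, 0.87, 0.81 and 0.70 for the genes themselves. With the neighbours subtracted on each array, none of these 4 was called against LUC (*ABCD3* -0.33, adjusted p = 0.0292 and under 1.5 times; *ABCC9* 0.12, adjusted p = 0.507; *ABCC2* 0.10, adjusted p = 0.550; *ABCD4* 0.03, adjusted p = 0.879). The 3 members that were higher are all among them, so each of them differed from LUC by about as much as the genes around it.

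The other 5 falls after the knockdown of *IGFBP6* remained called relative to their neighbours: *ABCA1* at -1.95 (adjusted p = 0.000140), *ABCC4* at -1.08, *ABCC3* at -0.99, *ABCB10* at -0.98 and *ABCA5* at -0.83. The neighbours of *ABCA1* were themselves lower (-0.60), and those of *ABCC3* (-0.29), *ABCC4* (-0.14), *ABCB10* (0.02) and *ABCA5* (0.09) less so or not. After the knockdown of *ELOVL5*, *ABCG2* remained called relative to its neighbours (-0.93, adjusted p = 0.00606), *ABCA5* was under 1.5 times (-0.56, adjusted p = 0.0144) and *ABCD3* was not called (-0.33, adjusted p = 0.146). In the direct comparison of the knockdowns, *ABCD3* came to 0.01 relative to its neighbours (adjusted p = 0.970), since its neighbours differed by -0.73 as it did.

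**Figure D4:**
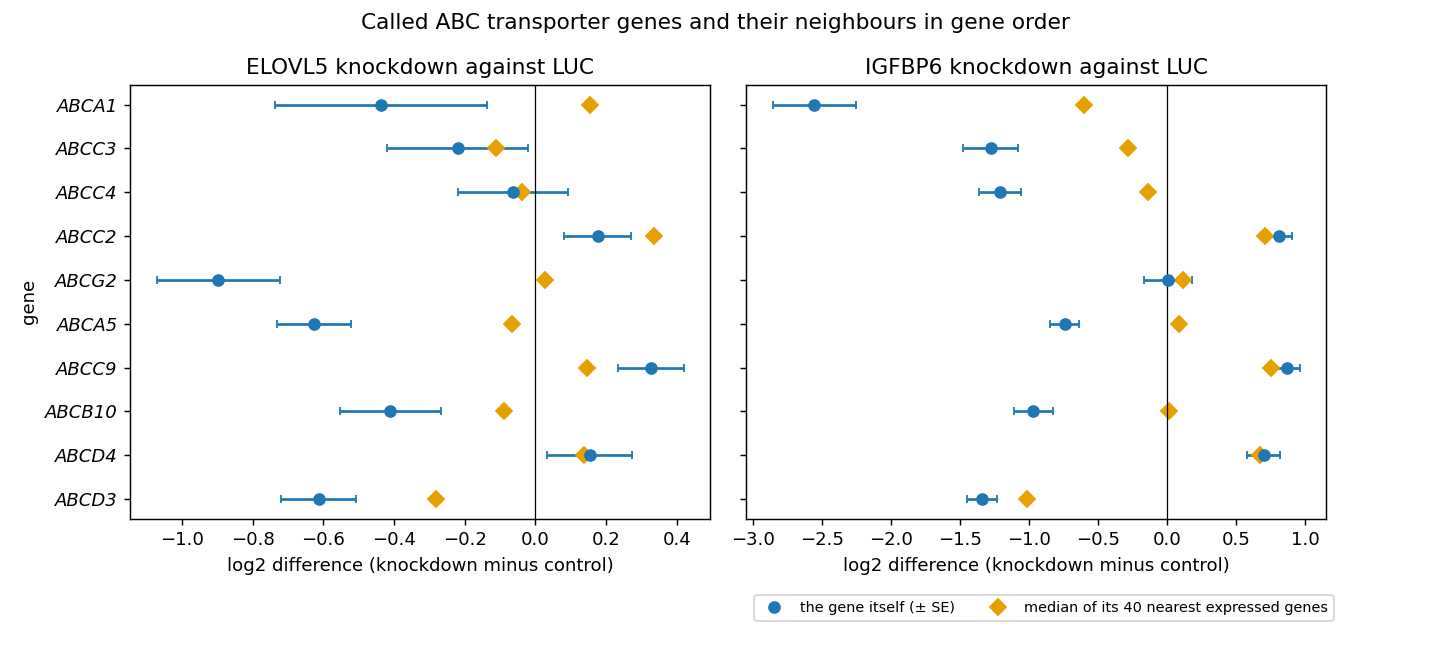
Log2 difference from LUC cells of the 10 called ABC transporter genes (circles, ± standard error) and the median of their 40 nearest expressed genes in chromosome order (diamonds), for both knockdowns; the axes of the panels differ. The diamonds lie close to the circles for *ABCC2*, *ABCC9* and *ABCD4* after the knockdown of *IGFBP6*, and far from them for *ABCA1*, *ABCC3*, *ABCC4*, *ABCB10* and *ABCA5*.

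With the neighbours subtracted, 11 members (26.2%, beside 21.8% of all genes with neighbours) were called against LUC after the knockdown of *IGFBP6*, 1 (2.38%, beside 2.12%) after that of *ELOVL5* and 9 (21.4%, beside 16.9%) between the knockdowns. Against LUC after the knockdown of *IGFBP6*, 6 of the 11 were members not called on their own. *ABCA12* (-0.83), *ABCB6* (-0.70), *ABCC5* (-0.69), *ABCD2* (-0.87) and *ABCG4* (-0.66) came out lower, and *ABCA4* (0.82) higher, than their neighbours. Their own differences from LUC were small, from -0.24 for *ABCA4* to -0.04 for *ABCB6*, so these values mainly restate the shift of the neighbours with its sign turned. Among them *ABCA12*, *ABCA4* and *ABCD2* were below the median of all values on every array, amid neighbours that differed from LUC by 0.79, -1.06 and 0.80. *ABCC5* at 7.85, 8.11 and 7.94 with *IGFBP6* knockdown, against 8.27, 8.11 and 8.19 in LUC cells, had neighbours that were 0.47 higher.

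By level, 19 of 42 members passed the brightness filter and 23 did not, and 17 were below the median of all values on every array. Of the 19, *ABCC2* passed only through the arrays with *IGFBP6* knockdown. Of the 32 members called in no comparison, 22 were under the filter (with 3.95 as the lowest value) and 10 passed it (6.11 to 13.71). For dim members the data bound a change poorly, and the absence of a call does not show that their mRNA was equal in the 3 cultures. The replicate spread of the members, as a median SD over genes, was 0.09 with *IGFBP6* knockdown, 0.04 with *ELOVL5* knockdown and 0.07 in LUC cells. Among the called members, replicate 1 of the *IGFBP6* knockdown was the lowest of its group for *ABCC4*, *ABCB10*, *ABCG2*, *ABCD4*, *ABCA5*, *ABCC2* and *ABCD3*. It was the highest for *ABCA1* and in the middle for *ABCC3* and *ABCC9*. Among uncalled members it was the lowest for *ABCC1* and others, and the highest for dim ones such as *ABCA4* and *ABCD2*.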

How the data were processed

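The deposited table holds log2 intensities of 67528 transcript clusters on 9 Affymetrix Human Transcriptome Array 2.0 arrays, which the authors background corrected, normalized and summarised by RMA (Transcriptome Analysis Console 4.0.0.25); the options set were not given in the sources used here. Values ran from 2.28 to 19.29, with a median of 5.02. In the annotation used here, 23781 clusters carry 1 gene symbol, 1543 several and 42204 none. Per gene the cluster with the highest mean over the arrays was used.

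All arrays were fitted with limma 3.58.1 in R 4.3.3 (lmFit, eBayes, no covariate, 6 residual degrees of freedom, prior 4.04), with the Benjamini-Hochberg adjustment over all clusters. The fit was tested on simulated data. The number of arrays limits the precision: with 3 per group, the smallest p of an exact permutation test is 0.1.

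The members and the lists of partners were chosen with earlier results of these data known. Every called member was named with its arrays, and other members by level or range. Of each list, up to 4 called genes with the largest change were named. *NR1H3*, *TAP2*, *CFTR*, *KCNJ8*, *KCNJ11*, *CYP1B1* and *CYP1A2* were named after their values were seen. Alternatives concerned the arrays fitted, the model of the variance, a replicate block, a filter on dim clusters (log2 of at least 6 on at least 3 arrays), normalization, array weights, the adjustment, the fold threshold, the clusters per gene, a subtraction of 40 neighbours in gene order (RefSeq, GRCh38.p14) and the arrays left out. Promoter sequences are from RefSeq. Figures were drawn with matplotlib 3.10.9.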

Additional observations from a re-analysis of the deposited data

How the results depend on the processing

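Of 18 called values of single ABC genes, tried under up to 22 alternatives each, 349 of 395 kept their call, 45 lost it and 1 reversed, and of 262 for values that were not called, 9 became called. The reversed one is *ABCD3* between the knockdowns, at 0.00667 relative to its neighbours. Among the alternatives, leaving out the fold threshold could not remove a call. The mean of all clusters of a gene left the values of the called members as they were, since each has 1 cluster. Relative to neighbours, 1 ABC gene was lower after the knockdown of *ELOVL5* against LUC, 1 was higher and 10 were lower after that of *IGFBP6*, and 7 were lower between the knockdowns. The count of genes lower after the knockdown of *ELOVL5* (3) was 0 with no moderation of the variances, 0 with each array centred on its median, 0 at a threshold of 2 times, and 0 to 3 when 1 array was left out; the cause was not tested. At 2 times, 0 ABC genes were higher after the knockdown of *IGFBP6* against LUC and 0 between the knockdowns, since fewer genes pass a stricter threshold. With no fold threshold, 4 were higher and 7 lower between the knockdowns. Leaving out 1 array gave 2 to 3 higher and 6 to 6 lower genes after the knockdown of *IGFBP6* against LUC, and 2 to 3 higher and 4 to 5 lower between the knockdowns.

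The replicate numbers of the labels were not taken to pair the arrays. Deviations of same-numbered arrays correlated between -0.06 and 0.33 over 9 pairs, against -0.27 to 0.19 over 18 pairs of different numbers. These ranges overlap and do not decide whether the arrays were paired, so the replicate number was also tried as a block. With the replicate number as a block, 2 genes were lower after the knockdown of *ELOVL5* (*ABCG2* at an adjusted p of 0.0531 from limma), and no other count of called ABC genes changed. The named partner genes gave 1845 cases, of which 62 lost a call, and the 1845 include values that were not called and had none to lose. With no moderation, *CYP2J2* lost its call against LUC after the knockdown of *ELOVL5* (adjusted p = 0.0533 from the plain linear model). After that of *IGFBP6*, *LMBRD1* (0.0559), *SLC25A37* (0.0648) and *SULT1B1* (0.0791) lost theirs against LUC. Relative to neighbours, *SLCO4A1*, *GSTM4*, *GSTM1*, *MGST1*, *GLRX5*, *SLC25A37*, *EIF2S1* and *ETF1* were not called in *IGFBP6* knockdown against LUC. Leaving out 1 array ended the calls of *SULT1B1* (without *IGFBP6* knockdown replicate 2, 0.44, or LUC replicate 1, 0.58), *CPOX* (without *IGFBP6* knockdown replicate 3 or LUC replicate 1 or 2, -0.58 to -0.56) and *LMBRD1* in that comparison. Of 660 counts for the partner lists, 37 moved, either by over 1.5 times or to or from 0. Dim signal limits 23 of 42 members.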
